A study of Mus musculus with 11 samples.

Results

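A set of 50 genes that copy DNA or serve the S phase of the cell cycle was followed in mouse microglia. The genes were listed by known function in 9 roles and were matched to array probes through the RefSeq accession that each probe carries. Of the 50 genes, 46 were matched and measured, out of 19555 genes tested on the arrays. Gmnn, Mcm10, Rfc3 and E2f1 had no matched probe and were not analysed here. Of the 46 genes, 30 rested on 1 probe and 16 on the mean of several.

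RNA of C57BL/6N microglia was hybridised to 11 single-colour Agilent arrays in 4 groups. Adult female microglia (A_FACS, 2 arrays) and newborn microglia of both sexes (NB_FACS, 3 arrays) were sorted by flow cytometry for intermediate CD45 and high CX3CR1 after trypsin and DNase digestion, and were lysed at once. NB_Control (3 arrays) were newborn microglia grown in mixed glia flasks fed with L-929 conditioned medium, a source of the growth factor M-CSF. By the paper's protocol they were shaken off after more than 2 weeks at the first of 3 harvests, and later at the others. The harvest used is not stated. The cells were then kept for 1 day in DMEM/F12 with serum. NB_Stim (3 arrays) were kept for that day with 100 ng/mL each of 3 human cytokines, TGF-β1, CX3CL1 and IL-34. NB_FACS and NB_Control therefore differed in culture, in age at lysis and in the way the cells were isolated, which cannot be told apart. A_FACS and NB_FACS differed in age, in the mix of sexes and in the way the mice were killed. Only the adults were described as perfused. Adult brains were pressed through a strainer, while newborn brains were pipetted apart. These differences cannot be told apart either. The labels number the replicates but name no animal or culture, so p-values measure the spread between these samples. Values below are quantile-normalised log2 intensities, differences are log2 differences between group means, and called genes are those with an adjusted p below 0.05 (limma's moderated test over all genes, two-sided).

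Before S phase, cells load a pair of rings of the MCM2-7 helicase at each replication origin, a step called licensing. Kinases and the CDC45 and GINS proteins then switch the helicase on, polymerases and a sliding clamp build the new strands, and chromatin is put back behind the fork. Many of these genes are transcribed shortly before S phase under E2F factors. Microglia of the newborn mouse brain divide widely, while adult microglia renew slowly.

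Since E2F factors act at many of these genes, their promoters were searched for E2F-type strings. The RefSeq promoter table (GRCm38.p6) held a window of 300 bases, 250 before the annotated start and 50 after it, for 41 of the 50 genes. It held none for Mcm4, Gins1, Gins2, Pole, Prim2, Rfc2, Exo1, Ccne2 and Gmnn. The first listed start of each gene was searched on both strands for 5 E2F-type motifs, TTTCCCGC, TTTGGCGC, TTTCGCGC, TTTGCCGC and TTCCCGCC, and for the CCAAT box as ATTGG. TTTCCCGC and TTCCCGCC overlap where TTTCCCGC is followed by a C, so that 1 stretch can count for both, and 2 E2F-type matches among the 50 genes overlapped a CCAAT match. At least 1 E2F-type motif was present in 19 of the 41 promoters (46.3%), against 3.97% of all 27025 genes in the table and 5.34% of the 14973 of them that were tested on the arrays. A CCAAT box was present in 22 of 41 (53.7%), against 37.9% and 38.5%. Both kinds occurred together in 12 of 41 promoters (29.3%), against 1.64% and 2.25%.

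The 6 windows shown are those of Mcm5, Prim1, Chaf1a and Uhrf1, which were called lower in both cultures and in adult cells than in NB_FACS and hold matches, of E2f2, the 1 gene called higher with cytokines, and of Cdc45, called lower like the first 4 but without any of the 5 E2F-type strings. Capitals mark the E2F-type and CCAAT matches on either strand, and each window is printed 5′ to 3′ along its gene. In Mcm5 matches to TTTCGCGC and, on the other strand, to TTTGGCGC overlap in the first capital run.
Mcm5 (chr8:75109259-75109558, plus strand): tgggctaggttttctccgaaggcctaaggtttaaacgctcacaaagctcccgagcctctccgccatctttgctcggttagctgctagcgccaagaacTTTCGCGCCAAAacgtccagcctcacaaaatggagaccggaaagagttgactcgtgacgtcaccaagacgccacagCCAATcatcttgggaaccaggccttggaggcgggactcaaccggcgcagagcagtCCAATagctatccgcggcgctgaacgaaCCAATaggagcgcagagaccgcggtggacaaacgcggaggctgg
Prim1 (chr10:128014965-128015264, plus strand): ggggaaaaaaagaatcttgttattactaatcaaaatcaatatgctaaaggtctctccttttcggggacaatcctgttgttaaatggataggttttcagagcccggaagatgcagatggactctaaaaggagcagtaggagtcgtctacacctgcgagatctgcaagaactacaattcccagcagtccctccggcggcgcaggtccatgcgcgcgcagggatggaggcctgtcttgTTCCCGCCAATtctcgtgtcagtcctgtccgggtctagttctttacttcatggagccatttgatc
Chaf1a (chr17:56040166-56040465, plus strand): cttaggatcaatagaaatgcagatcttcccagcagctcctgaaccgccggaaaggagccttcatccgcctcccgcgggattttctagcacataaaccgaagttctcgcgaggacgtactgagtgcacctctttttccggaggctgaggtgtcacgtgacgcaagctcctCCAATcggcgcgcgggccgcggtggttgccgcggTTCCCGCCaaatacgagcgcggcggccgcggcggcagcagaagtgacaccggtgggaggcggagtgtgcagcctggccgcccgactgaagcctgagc
Uhrf1 (chr17:56303087-56303386, plus strand): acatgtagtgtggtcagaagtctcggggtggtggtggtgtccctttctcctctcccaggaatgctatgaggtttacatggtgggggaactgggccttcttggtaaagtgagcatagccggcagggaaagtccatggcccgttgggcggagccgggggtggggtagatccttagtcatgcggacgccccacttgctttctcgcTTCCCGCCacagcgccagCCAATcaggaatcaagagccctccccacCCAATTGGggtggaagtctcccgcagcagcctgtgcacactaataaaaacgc
E2f2 (chr4:136172024-136172323, plus strand): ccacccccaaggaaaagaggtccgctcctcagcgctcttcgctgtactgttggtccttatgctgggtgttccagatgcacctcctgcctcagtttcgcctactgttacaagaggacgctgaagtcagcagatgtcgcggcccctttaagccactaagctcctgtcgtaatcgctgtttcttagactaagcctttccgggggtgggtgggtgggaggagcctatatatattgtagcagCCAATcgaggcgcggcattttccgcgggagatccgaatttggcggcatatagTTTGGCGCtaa
Cdc45 (chr16:18811923-18812222, minus strand): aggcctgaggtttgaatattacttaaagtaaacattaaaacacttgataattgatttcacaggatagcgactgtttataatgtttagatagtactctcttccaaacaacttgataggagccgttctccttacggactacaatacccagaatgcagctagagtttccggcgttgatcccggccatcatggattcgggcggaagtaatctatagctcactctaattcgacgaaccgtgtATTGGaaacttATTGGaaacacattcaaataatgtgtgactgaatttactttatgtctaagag

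The 4 motifs other than TTTGCCGC each occurred in 5 to 8 of the 41 promoters, and TTTGCCGC in 0 of 41. A match is a string of letters and was not tested as a binding site. Among measured genes, the 18 with an E2F-type match had a median log2 difference of -1.92 between NB_Control and NB_FACS, and the 20 without one had -1.21. Between A_FACS and NB_FACS the medians were -2.33 and -2.04. Both sets ranged widely, from -3.95 to 0.01 with a match and from -2.79 to -0.51 without one in the first comparison, and no test was made of this split.

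Freshly sorted newborn microglia had the highest mean for 44 of the 46 genes. The exceptions were Slbp, highest in A_FACS, and Cdc6, whose differences between the 3 newborn groups were 0.01 to 0.03. The lowest mean was in A_FACS for 26 genes, in NB_Stim for 18 and in NB_Control for 2. The order NB_FACS, NB_Control, NB_Stim, A_FACS from high to low was followed by 22 genes. Against the NB_FACS mean of each gene, the median over the 46 genes was -2.21 and -2.03 on the 2 A_FACS arrays, -1.51, -1.44 and -1.39 on the NB_Control arrays, and -1.64, -1.71 and -1.64 on the NB_Stim arrays. The NB_FACS arrays themselves lay at -0.12, -0.08 and 0.21. These are bulk samples, in which fewer cells in S phase and less RNA per cell cannot be told apart.

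**Figure D1:**
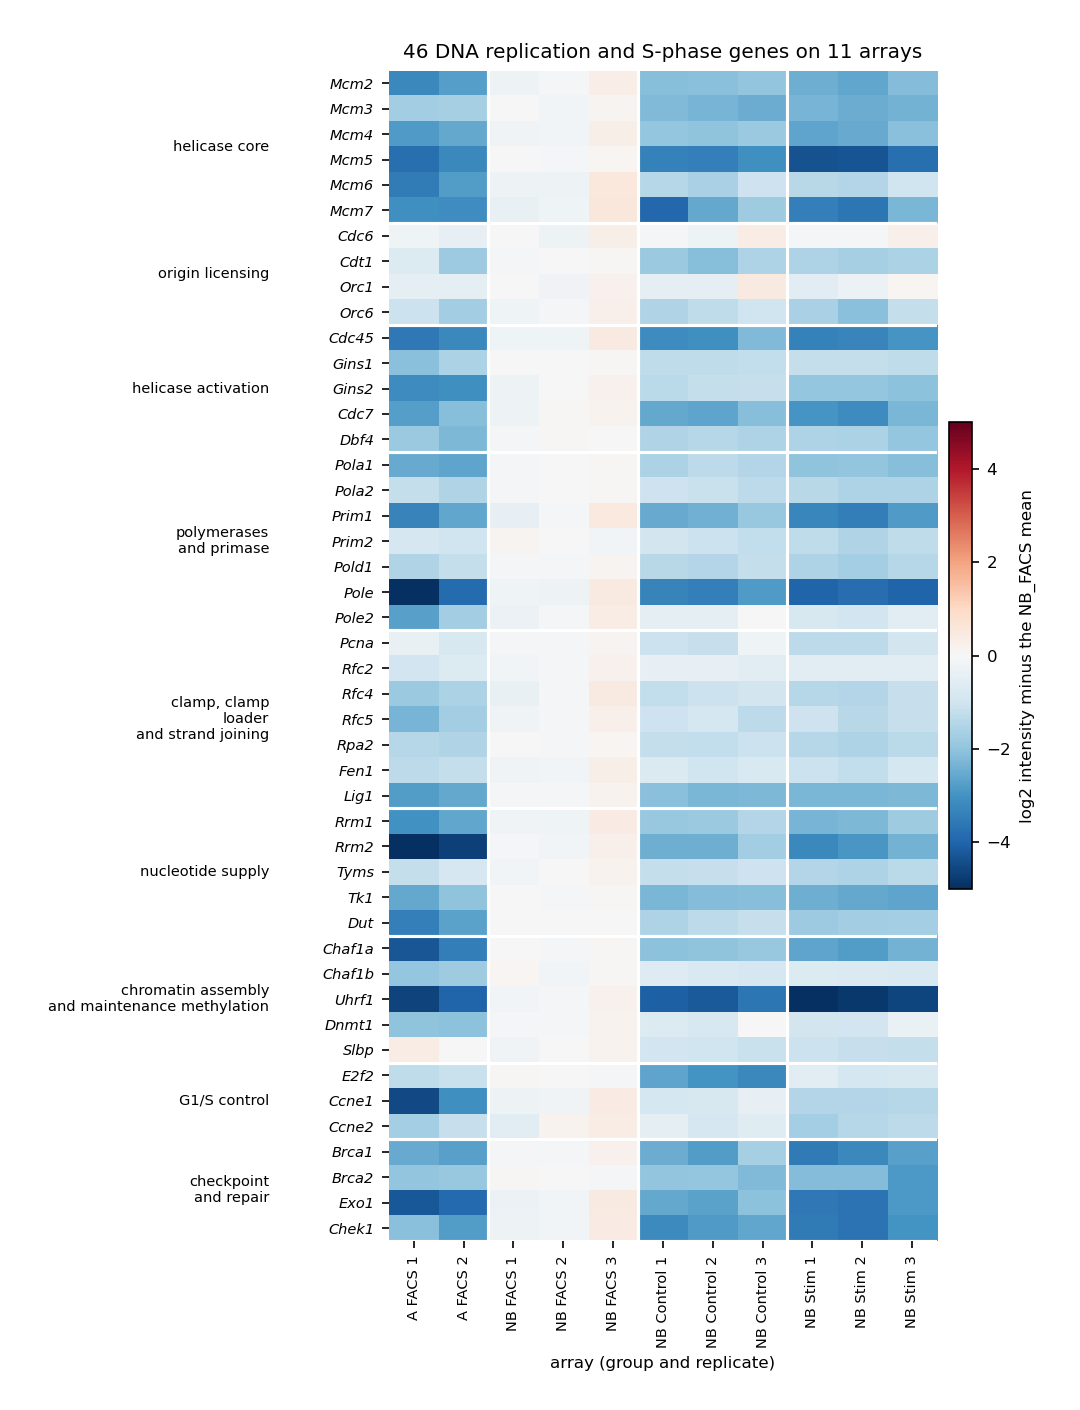
Log2 intensity of the 46 genes (rows, grouped by role) on the 11 arrays (columns), drawn as the difference from the mean of the 3 NB_FACS arrays of each gene. Blue cells, below that mean, fill most of the A_FACS, NB_Control and NB_Stim columns, where the array medians run from -1.39 to -2.21, while Cdc6 and Orc1 stand out as pale rows.

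Between NB_Control and NB_FACS, 40 of the 46 genes were called lower in culture and 0 were called higher, where 13.9% of all genes were called lower and 15.8% higher. The median difference was -1.40, from -3.95 to 0.01, and that of all genes was 0.09. Every NB_Control array lay below every NB_FACS array for 41 of the 46 genes, against 20.2% of all genes. NB_Stim against NB_FACS gave 43 genes called lower and 0 higher (all genes 15.1% and 16%), with a median of -1.66. In A_FACS against NB_FACS, 42 genes were called lower and 0 higher (all genes 12.9% and 9.75%), with a median of -2.13 against -0.01 for all genes. These 3 comparisons share the NB_FACS arrays, so a high value there enters all of them. At an unadjusted p under 0.05 by limma, and by the methods' Tukey test with or without adjustment over genes, 0 of the 46 genes were higher in these 3 comparisons as well.

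**Figure D2:**
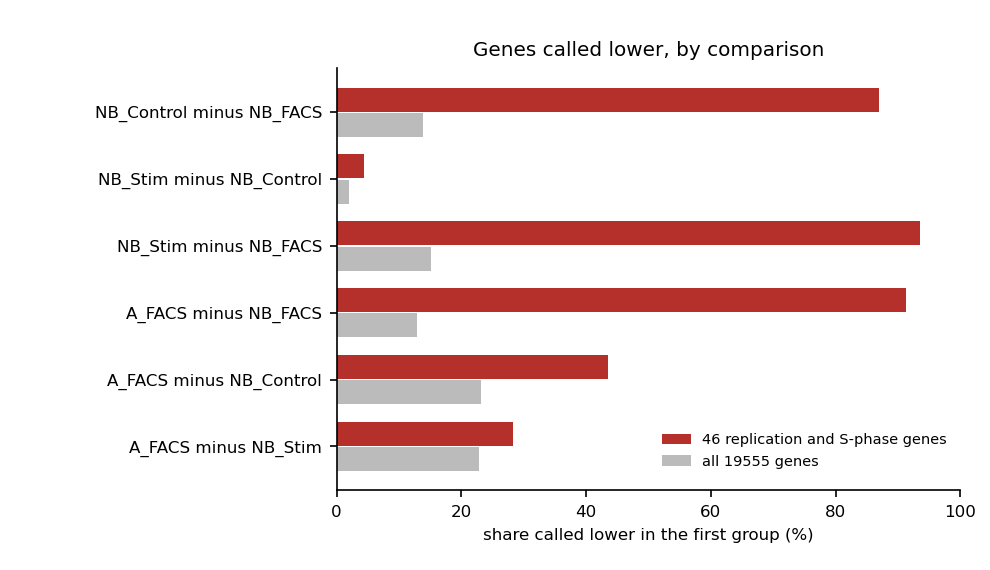
Share of the 46 genes (red) and of all 19555 genes (grey) called lower in the first group of each comparison, in percent. The red bars of the 3 comparisons against NB_FACS stand at 40, 43 and 42 of 46 genes, with grey bars between 12.9% and 15.1%, whereas in NB_Stim against NB_Control both bars are short (2 of 46 genes, all genes 2%).

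All 6 MCM genes, whose proteins form the ring that unwinds DNA, were called lower in NB_Control, in NB_Stim and in A_FACS than in NB_FACS, with medians of -2.20, -2.41 and -3.04. Mcm5 measured 11.77, 11.65 and 11.87 in NB_FACS, 8.4, 8.36 and 8.69 in NB_Control, 7.39, 7.43 and 7.99 in NB_Stim and 7.99 and 8.53 in A_FACS. Every NB_FACS array lay above every other array, NB_Stim lay below NB_Control, and the adult arrays lay within the range of the cultures. The difference was -3.28 (SE 0.206, adjusted p = 4e-06) in NB_Control, a level 9.71-fold lower, and -3.50 (SE 0.23, adjusted p = 2.06e-05) in A_FACS. Mcm2 gave 12.28, 12.45 and 12.86 in NB_FACS, 10.41, 10.44 and 10.56 in NB_Control, 10.1, 9.92 and 10.37 in NB_Stim and 9.31 and 9.78 in A_FACS. Here too the NB_FACS arrays stood alone, and the 2 adult arrays were below all cultured ones. Its differences from NB_FACS were -2.06 (SE 0.195, adjusted p = 4.76e-05) in NB_Control and -2.99 (SE 0.218, adjusted p = 3.46e-05) in A_FACS. Mcm7 was dim: it was well above background on 3 of 3 NB_FACS arrays but on 1 array of each other group. It thus passed the background filter only through NB_FACS, the group where it was high. Its calls are included in the counts above. Its array values were 5.96, 6.12 and 6.89 in NB_FACS, 2.38, 3.75 and 4.53 in NB_Control, 2.91, 2.7 and 4.02 in NB_Stim and 3.27 and 3.2 in A_FACS, with NB_FACS above all others, and the NB_Control difference was -2.77 (SE 0.526, adjusted p = 0.00293). Mcm3, Mcm4 and Mcm6 lay between -2.33 and -1.35 in that comparison.

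Origin licensing had 2 of 4 measured genes called lower in NB_Control, with a median of -0.71. Cdc6, which helps load the helicase, and Orc1, a subunit of the origin recognition complex, were not called in any of the 6 comparisons. Their differences against NB_FACS ran from -0.47 to 0.03. The 2 probes of Cdc6 moved in opposite directions in NB_Control against NB_FACS (-0.22 and 0.24). Cdt1, the licensing factor that is destroyed once S phase begins, measured 12.24, 12.28 and 12.34 in NB_FACS, 10.43, 10.18 and 10.74 in NB_Control, 10.75, 10.64 and 10.69 in NB_Stim and 11.61 and 10.47 in A_FACS. All NB_FACS arrays were higher than all other arrays, and the other 3 groups overlapped each other. It was called lower in NB_Control, -1.84 (SE 0.259, adjusted p = 0.000517), and in A_FACS, -1.25 (SE 0.29, adjusted p = 0.0128). Orc6, the smallest subunit of the origin recognition complex, measured 7.56, 7.75 and 8.05 in NB_FACS, 6.29, 6.51 and 6.8 in NB_Control, 6.17, 5.7 and 6.59 in NB_Stim and 6.7 and 6.06 in A_FACS, again with NB_FACS on top. The NB_Control difference was -1.25 (SE 0.263, adjusted p = 0.00515).

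Helicase activation genes were all called lower in both cultures and in adult cells than in NB_FACS, with 5 of 5 measured. Cdc45, the subunit that joins the MCM ring to make the active helicase, measured 6.97, 7.0 and 7.64 in NB_FACS, 4.07, 4.15 and 5.0 in NB_Control, 3.81, 3.9 and 4.25 in NB_Stim and 3.61 and 3.99 in A_FACS. The lowest NB_FACS array (6.97) lay well above the highest of the others, NB_Control replicate 3. The difference was -2.79 (SE 0.282, adjusted p = 6.84e-05) in NB_Control and -3.40 (SE 0.315, adjusted p = 0.000105) in A_FACS. Cdc7, the kinase that with its partner Dbf4 fires origins, measured 8.76, 9.04 and 9.19 in NB_FACS, 6.44, 6.36 and 6.87 in NB_Control, 6.04, 5.87 and 6.71 in NB_Stim and 6.24 and 6.87 in A_FACS, with NB_FACS above all others and the other groups overlapping each other. Its NB_Control difference was -2.44 (SE 0.26, adjusted p = 9.63e-05). Gins2, a GINS subunit, measured 9.27, 9.54 and 9.76 in NB_FACS, 8.18, 8.34 and 8.37 in NB_Control, 7.59, 7.59 and 7.47 in NB_Stim and 6.39 and 6.48 in A_FACS. Its 4 groups did not overlap anywhere and ran in the order NB_FACS, NB_Control, NB_Stim, A_FACS. The differences from NB_FACS were -1.23 (SE 0.145, adjusted p = 0.000175) in NB_Control, -1.98 (SE 0.145, adjusted p = 1e-05) in NB_Stim and -3.09 (SE 0.162, adjusted p = 6.22e-06) in A_FACS. Dbf4 and Gins1 differed by -1.48 and -1.26 between NB_Control and NB_FACS. For Gins1 that mean joined a probe at -2.79 and a brighter one at 0.27, and on the brighter probe alone the call was lost.

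Among polymerases and primase, 6 of 7 genes were called lower in NB_Control and 7 of 7 in A_FACS. Pole, the catalytic subunit of the leading-strand polymerase, measured 9.78, 9.75 and 10.45 in NB_FACS, 6.65, 6.58 and 7.14 in NB_Control, 6.0, 6.18 and 5.98 in NB_Stim and 5.0 and 6.14 in A_FACS. NB_FACS was far above the rest, and NB_Stim lay below NB_Control on every array. Its differences were -3.20 (SE 0.302, adjusted p = 4.58e-05) in NB_Control and -4.42 (SE 0.337, adjusted p = 4.39e-05) in A_FACS, the latter 21.5-fold. Prim1, the primase subunit that makes the first RNA bases of each fragment, measured 9.69, 10.02 and 10.58 in NB_FACS, 7.59, 7.69 and 8.2 in NB_Control, 6.82, 6.65 and 7.28 in NB_Stim and 6.76 and 7.49 in A_FACS. The newborn groups ran in the same order without overlap, and the adult arrays overlapped those of NB_Stim. The NB_Control difference was -2.27 (SE 0.292, adjusted p = 0.000293). Pola1, the catalytic subunit of the polymerase that extends those primers, measured 8.24, 8.32 and 8.36 in NB_FACS, 6.74, 7.02 and 6.86 in NB_Control, 6.29, 6.35 and 6.19 in NB_Stim and 5.8 and 5.67 in A_FACS, and its 4 groups were again apart from one another. Its difference was -1.44 (SE 0.124, adjusted p = 2.57e-05) in NB_Control and -2.57 (SE 0.138, adjusted p = 6.8e-06) in A_FACS. Pola2, Prim2 and Pold1 lay between -1.36 and -1.08 in NB_Control. Pole2, a subunit of the leading-strand polymerase, was not called there (-0.30) but was in A_FACS (-2.22, SE 0.313, adjusted p = 0.000987).

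Of the clamp, clamp loader and strand-joining genes, 7 of 7 measured were called lower in NB_Control, with a median of -1.07, and 6 of 7 in A_FACS. Lig1, the ligase that seals fragments of the lagging strand, measured 12.37, 12.33 and 12.61 in NB_FACS, 10.35, 10.14 and 10.21 in NB_Control, 10.17, 10.16 and 10.18 in NB_Stim and 9.63 and 9.89 in A_FACS. NB_FACS stood clear of the other groups, among which NB_Control and NB_Stim overlapped. The differences were -2.20 (SE 0.132, adjusted p = 3.05e-06) in NB_Control and -2.68 (SE 0.148, adjusted p = 7.13e-06) in A_FACS. Pcna, the sliding clamp itself, measured 13.25, 13.23 and 13.44 in NB_FACS, 12.23, 12.16 and 13.1 in NB_Control, 12.02, 12 and 12.39 in NB_Stim and 12.93 and 12.52 in A_FACS. NB_FACS was the highest group without overlap, with NB_Control replicate 3 next below it and far from replicates 1 and 2. Pcna was called in NB_Control, -0.81 (SE 0.249, adjusted p = 0.0332), and in NB_Stim, -1.17 (SE 0.249, adjusted p = 0.00548), and was not called in A_FACS, -0.58 (SE 0.278, adjusted p = 0.17). The NB_Control call was lost in 9 of the 24 alternatives, among them leaving out any NB_FACS array or NB_Control replicate 1 or 2. Rpa2, a subunit of the single-strand binding protein, measured 10.5, 10.42 and 10.61 in NB_FACS, 9.32, 9.28 and 9.42 in NB_Control, 9.1, 8.97 and 9.15 in NB_Stim and 9.09 and 9.01 in A_FACS, with a difference of -1.17 (SE 0.117, adjusted p = 6.43e-05) in NB_Control. NB_FACS was above every other array, and NB_Control above NB_Stim. Rfc2 had the smallest called difference (-0.46), which was lost in 10 of the 24 alternatives, and Rfc4, Rfc5 and Fen1 lay between -1.08 and -0.84.

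Nucleotide supply genes were called lower for 5 of 5 in both cultures and in A_FACS. Rrm2, the subunit of ribonucleotide reductase that is made in S phase, measured 10.25, 10.24 and 10.6 in NB_FACS, 7.9, 7.92 and 8.63 in NB_Control, 7.13, 7.44 and 8.01 in NB_Stim and 4.84 and 5.7 in A_FACS. The newborn sorted arrays were highest and the adult arrays lowest, and the cultures, which overlapped each other, lay between them. Rrm2 differed by -2.21 (SE 0.305, adjusted p = 0.00045) in NB_Control and by -5.09 (SE 0.341, adjusted p = 2.21e-05) in A_FACS, a level 34.1-fold lower and the largest difference of any of the 46 genes in that comparison. Tk1, the thymidine kinase of the salvage route, measured 7.95, 7.92 and 8.0 in NB_FACS, 5.68, 5.79 and 5.85 in NB_Control, 5.5, 5.39 and 5.32 in NB_Stim and 5.4 and 5.95 in A_FACS. All NB_FACS arrays lay above all others, and the adult arrays overlapped both cultures. The NB_Control difference was -2.18 (SE 0.152, adjusted p = 7.58e-06) and the A_FACS difference -2.29 (SE 0.17, adjusted p = 3.94e-05), but of its 4 probes 1 differed by only -0.48 in NB_Control and by 0.23 in A_FACS, where the other 3 lay between -3.15 and -2.46 and between -3.70 and -2.83. Rrm1, Dut and Tyms lay between -1.75 and -1.13 in NB_Control, and the 2 probes of Tyms, which encodes thymidylate synthase, differed in sign in A_FACS (-2.34 and 0.31).

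Of the chromatin assembly and maintenance methylation genes, 4 of 5 were called lower in NB_Control, 5 of 5 in NB_Stim and 4 of 5 in A_FACS. Chaf1b is counted in all 3, but its 2 probes disagreed. In that order 1 probe differed by -1.32, -1.55 and -3.86, and the other by -0.18, 0.10 and 0.15. Uhrf1, which reads half-methylated DNA behind the fork and brings in the maintenance methyltransferase Dnmt1, measured 11.89, 11.95 and 12.25 in NB_FACS, 7.95, 7.85 and 8.42 in NB_Control, 6.88, 7.22 and 7.44 in NB_Stim and 7.41 and 8.04 in A_FACS. The lowest NB_FACS array (11.89) lay far above the highest of the others, NB_Control replicate 3 (8.42). The difference was -3.95 (SE 0.231, adjusted p = 2.66e-06) in NB_Control, 15.5-fold and the largest of the 46 genes in that comparison, -4.85 (SE 0.231, adjusted p = 1.16e-06) in NB_Stim and -4.30 (SE 0.258, adjusted p = 1.2e-05) in A_FACS. Chaf1a, the large subunit of the histone chaperone CAF-1, measured 10.95, 10.85 and 11 in NB_FACS, 8.88, 8.9 and 9.05 in NB_Control, 8.31, 8.15 and 8.56 in NB_Stim and 6.65 and 7.49 in A_FACS, with no overlap between any of the groups. Its differences were -1.99 (SE 0.206, adjusted p = 8.21e-05) in NB_Control and -3.86 (SE 0.231, adjusted p = 1.2e-05) in A_FACS. Dnmt1 itself was not called in NB_Control (-0.51, adjusted p = 0.141), although it was called in 4 of the 24 alternatives, the replicate number as a block among them, and was called in A_FACS (-2.03). Slbp, which binds the stem-loop of histone mRNA, was called lower in NB_Control (-1.03) and was not called in A_FACS (0.21, adjusted p = 0.387), where its arrays overlapped those of NB_FACS.

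Of the 3 measured G1/S control genes, 1 was called lower in NB_Control and 3 in each of NB_Stim and A_FACS. E2f2, an activating E2F factor, measured 9.14, 9.07 and 9.04 in NB_FACS, 6.45, 6.11 and 5.84 in NB_Control, 8.51, 8.22 and 8.28 in NB_Stim and 7.81 and 7.97 in A_FACS. NB_Control was the lowest group, NB_Stim lay between A_FACS and NB_FACS, and no groups overlapped. E2f2 was -2.95 (SE 0.166, adjusted p = 2.33e-06) in NB_Control against NB_FACS, 7.72-fold lower, -0.74 (SE 0.166, adjusted p = 0.00728) in NB_Stim and -1.19 (SE 0.186, adjusted p = 0.00168) in A_FACS. Ccne2, a cyclin that drives entry into S phase, measured 4.47, 5.23 and 5.44 in NB_FACS, 4.62, 4.21 and 4.44 in NB_Control, 3.37, 3.62 and 3.76 in NB_Stim and 3.36 and 3.91 in A_FACS. NB_Control overlapped NB_FACS and was not called against it, -0.62 (SE 0.259, adjusted p = 0.103), while NB_Stim, well above background on 1 of 3 arrays, was, -1.46 (SE 0.259, adjusted p = 0.00196). Against NB_FACS, 1 probe of Ccne2 differed by -1.75 in NB_Control, -2.84 in NB_Stim and -3.59 in A_FACS. The other probe of Ccne2 differed by 0.50, -0.09 and 0.76. Ccne1, its paralogue, was not called in NB_Control (-0.69, adjusted p = 0.149) and was called lower in A_FACS, -3.78 (SE 0.366, adjusted p = 0.000132), where the 2 adult arrays measured 4.90 and 6.34.

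Checkpoint and repair genes were called lower for 4 of 4 in both cultures and in A_FACS. Chek1, the kinase that restrains the cycle when forks stall, measured 8.35, 8.48 and 9.03 in NB_FACS, 5.42, 5.78 and 6.04 in NB_Control, 5.08, 4.92 and 5.63 in NB_Stim and 6.52 and 5.82 in A_FACS. NB_FACS was above all others, and the 2 lowest arrays were of NB_Stim. The difference was -2.88 (SE 0.278, adjusted p = 5.31e-05) in NB_Control and -2.45 (SE 0.311, adjusted p = 0.000565) in A_FACS. Exo1, an exonuclease of mismatch and break repair, measured 6.29, 6.46 and 7.02 in NB_FACS, 4.02, 3.92 and 4.54 in NB_Control, 3.02, 2.9 and 3.72 in NB_Stim and 2.34 and 2.72 in A_FACS, and was well above background on 1 of the 2 adult arrays. The 4 groups did not overlap. Its differences were -2.43 (SE 0.279, adjusted p = 0.000149) in NB_Control and -4.06 (SE 0.312, adjusted p = 4.39e-05) in A_FACS. Brca1 and Brca2, which serve repair of broken forks by recombination, differed by -2.32 and -2.03 in NB_Control.

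**Figure D3:**
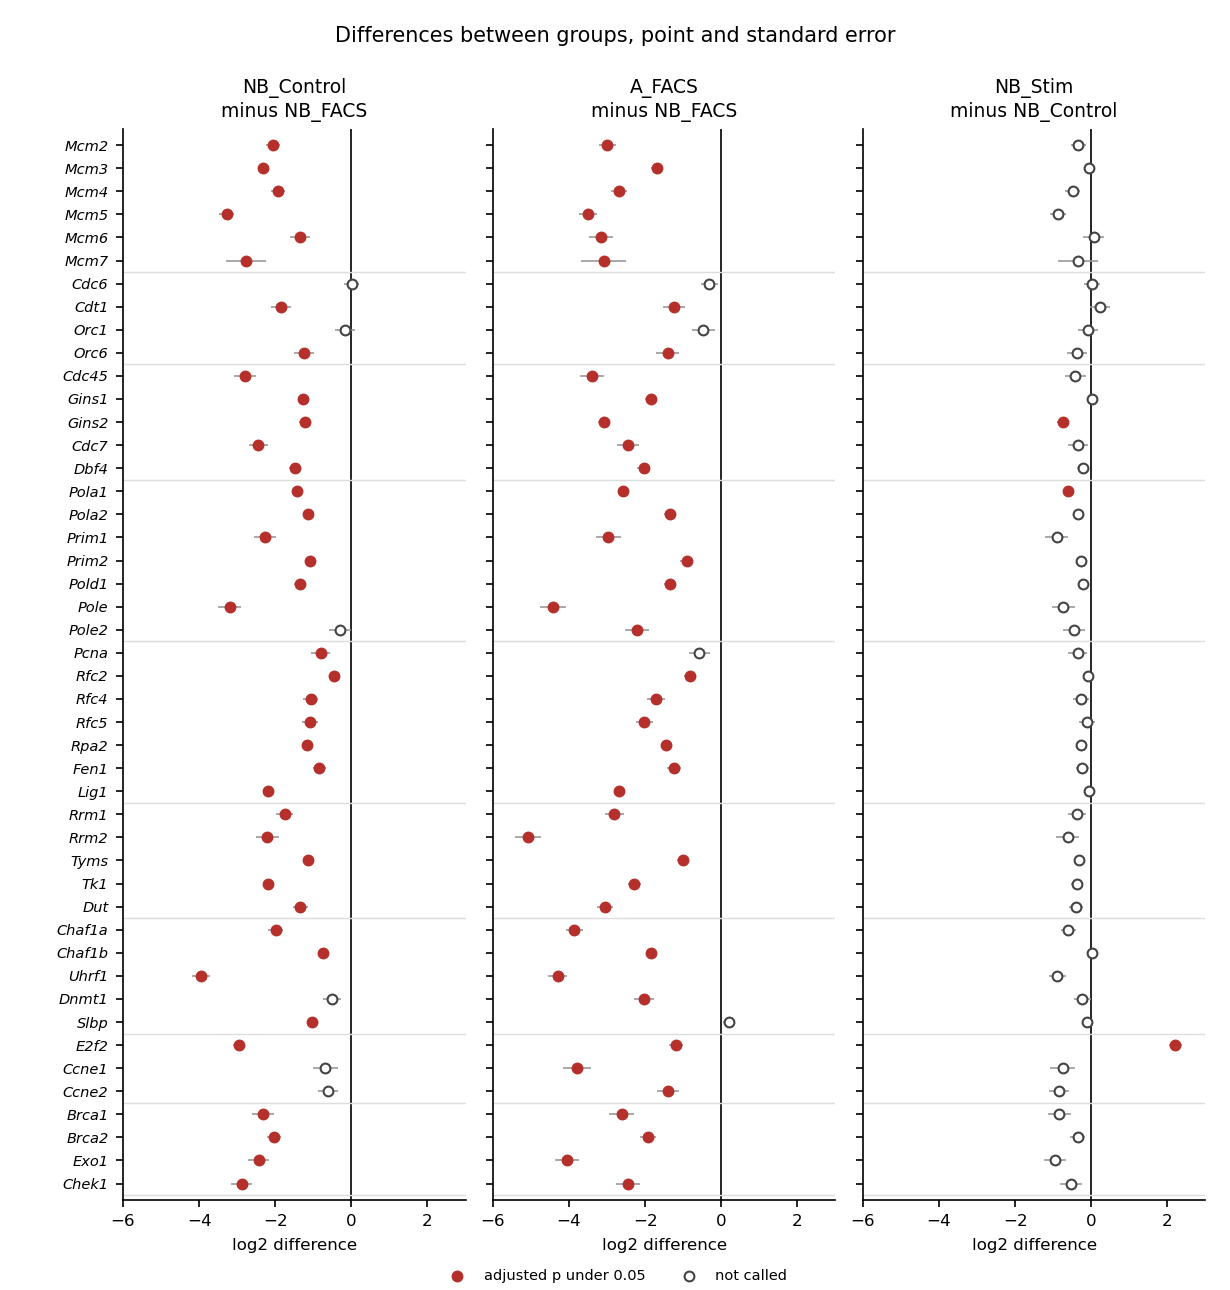
Log2 difference of each of the 46 genes in 3 comparisons, as a point with its standard error (limma), filled red where the adjusted p was under 0.05 and open where the gene was not called. Nearly all points of the first 2 panels lie left of 0 and are filled (40 and 42 of 46), whereas in NB_Stim minus NB_Control 43 of 46 are open and E2f2 alone lies far to the right, at 2.21.

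Between NB_Stim and NB_Control, 2 genes were called lower and 1 higher, where 2% and 1.4% of all genes were called. The median difference was -0.35, and 40 of the 46 genes were lower in NB_Stim, against a median of 0.00 for all genes. At an unadjusted p under 0.05, 16 genes were lower, against 8.84% of all genes. Pairing the cultures by replicate number, the median was -0.27, -0.41 and -0.33, with 41, 38 and 40 of 46 genes lower in NB_Stim. With the replicate number as a block, 7 genes were called lower (all genes 3.64%): Mcm5, Gins2, Pola1, Prim1, Uhrf1, Brca1 and Exo1, with differences from -0.95 to -0.60.

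Gins2 and Pola1 were the 2 called lower. On the arrays given above, each had every NB_Stim value below every NB_Control value. The same held for 20 of the 46 genes and for 13.8% of all genes. It comes from the same arrays as the calls and is no separate support for them. Gins2 differed by -0.75 (SE 0.145, adjusted p = 0.022) and Pola1 by -0.60 (SE 0.124, adjusted p = 0.0304). Neither call was held when any 1 NB_Control or NB_Stim array was left out, and with replicates 1 and 2 of each culture averaged into 1 sample 0 genes were called lower. E2f2 moved the other way: its NB_Stim arrays lay between 8.22 and 8.51 and its NB_Control arrays between 5.84 and 6.45, a difference of 2.21 (SE 0.166, adjusted p = 0.00018) or 4.62-fold. Its call was held under all 24 alternatives. Of the other E2F genes measured, E2f4, E2f5, E2f6 and E2f7, none was called in this comparison. Mcm5 (-0.88, adjusted p = 0.0513) and Uhrf1 (-0.89, adjusted p = 0.0756) missed the threshold, which does not show that they were alike in both cultures.

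**Figure D4:**
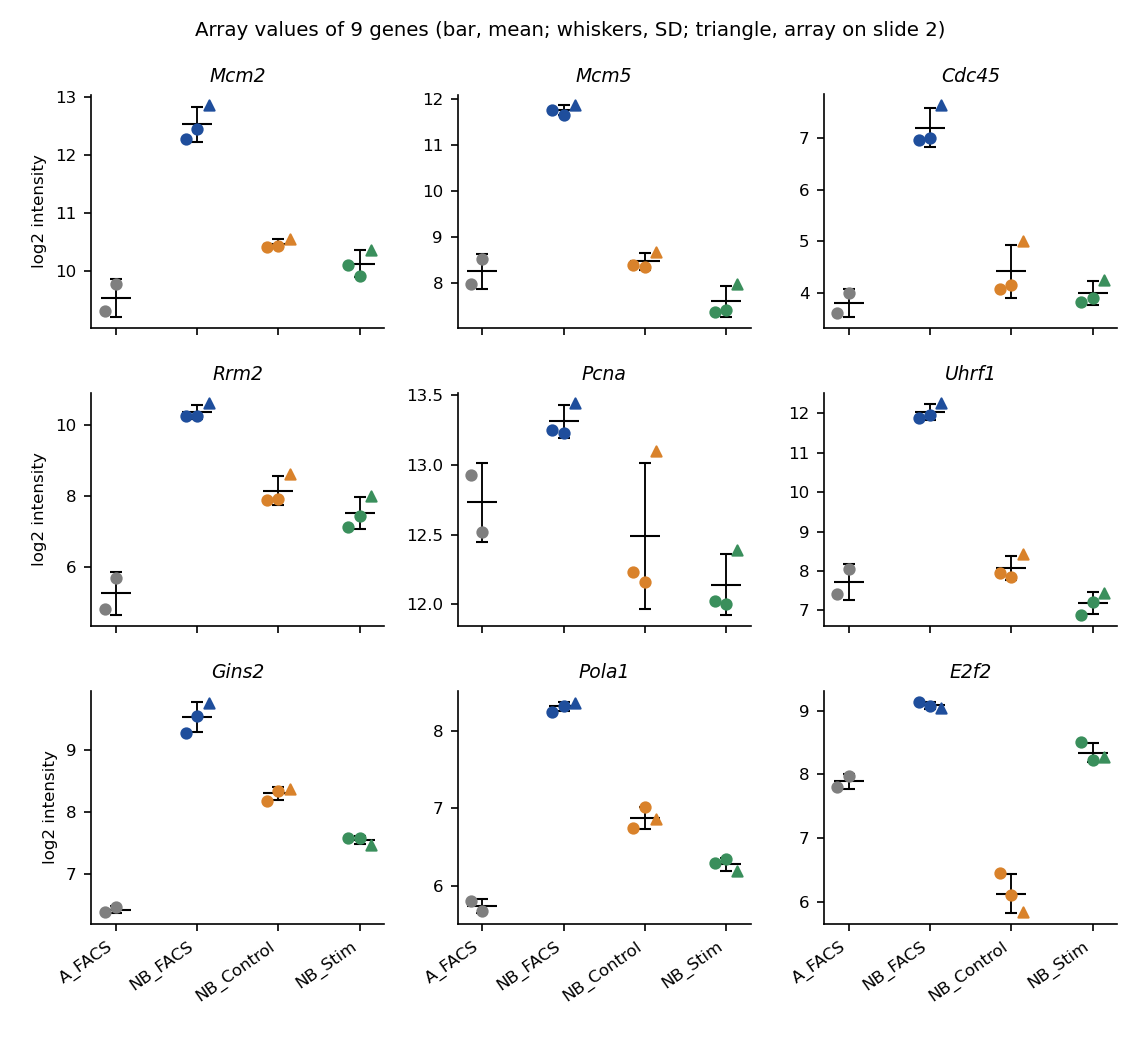
Log2 intensity of 9 genes on each array, by group, with the group mean (bar) and SD (whiskers); triangles are arrays on slide 2, and each panel has its own range. NB_FACS is the highest group in all 9 panels, NB_Stim lies below NB_Control without overlap for Mcm2, Mcm5, Uhrf1, Gins2 and Pola1, and for E2f2 NB_Stim (8.22 to 8.51) lies above NB_Control (5.84 to 6.45). NB_Stim lay below NB_Control without overlap for 20 of the 46 genes and for 13.8% of all genes.

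Adult cells were also set against the cultures, which share neither age nor isolation with them. In A_FACS against NB_Control, 20 genes were called lower and 3 higher (all genes 23.2% and 17.7%), with a median of -0.44 against -0.11 for all genes. Without A_FACS replicate 1, 12 genes were called lower. In A_FACS against NB_Stim, 13 were called lower and 4 higher (22.8% and 17.5%), with the lower share near that of all genes and a median of -0.25. The higher count was 9 with the replicate number as a block (all genes 22%) and 2 without NB_Stim replicate 1 or without replicate 2. Ccne1 and Rrm2 were lowest in the adult cells: Ccne1 by -3.08 (SE 0.366, adjusted p = 0.000151) and Rrm2 by -2.88 (SE 0.341, adjusted p = 0.000147) against NB_Control. The 3 genes higher in A_FACS than in NB_Control were E2f2 (1.75, SE 0.186, adjusted p = 7.71e-05), Slbp (1.24, SE 0.157, adjusted p = 0.000219) and Mcm3 (0.63, SE 0.141, adjusted p = 0.00564). Against NB_Stim the 4 higher were Slbp (1.35), Chek1 (0.96), Mcm3 (0.69) and Mcm5 (0.65), of which the calls of Chek1 and Mcm5 were lost in 7 and 14 of the alternatives. Cdc7 and Pcna passed the test in neither comparison.

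Other genes of the cell cycle were described from 4 lists, by count and median. For comparison, 13.9% of all genes were called lower and 15.8% higher in NB_Control than in NB_FACS. In A_FACS against NB_FACS these shares were 12.9% and 9.75%. Of 30 measured genes of other replication machinery (37 listed), 15 were called lower and 1 higher in NB_Control than in NB_FACS, with a median of -0.69, and 19 lower and 2 higher in A_FACS. Ticrr, which helps load CDC45, measured 8.95, 8.91 and 9.09 in NB_FACS, 5.35, 4.88 and 5.59 in NB_Control, 4.39, 4.21 and 5.14 in NB_Stim and 4.3 and 5.4 in A_FACS. Hells, a chromatin remodeller, measured 8.86, 9.21 and 9.37 in NB_FACS, 6.33, 6.5 and 6.59 in NB_Control, 6.05, 5.97 and 5.78 in NB_Stim and 5.06 and 5.35 in A_FACS. Both were highest in NB_FACS, with differences of -3.71 and -2.67 in NB_Control, and Chtf18, part of another clamp loader, differed by -2.11. The 19 measured mitosis genes (20 listed), whose products act after S phase, had 18 called lower and 0 higher in NB_Control, with a median of -2.91, and 18 and 0 in A_FACS, with a median of -3.90. Mki67, the common marker of cycling cells, measured 11.48, 11.22 and 11.21 in NB_FACS, 6.79, 6.52 and 7.09 in NB_Control, 5.92, 6.67 and 6.74 in NB_Stim and 6.25 and 7.5 in A_FACS, with a difference of -4.50 (SE 0.328, adjusted p = 9.52e-06) in NB_Control. Its NB_FACS arrays stood above all others. Nusap1 (-4.57) and Ccnb1 (-3.76) were the others with the largest differences. In NB_Stim against NB_Control 0 of 30 and 0 of 19 were called in these lists by limma, with medians of -0.26 and -0.62. At an unadjusted p under 0.05 there were 9 and 3, in either direction, against 2969 of all 19555 genes.

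Of 23 measured genes of cell cycle entry and brakes (27 listed), 10 were called lower and 4 higher in NB_Control than in NB_FACS. Of all genes, 13.9% were called lower and 15.8% higher there. The calls in this list thus leaned lower, while its median was 0.02, with 11 genes below 0 and 12 above. Ccna2, the cyclin of S phase itself, was lower (-3.72, SE 0.365, adjusted p = 5.83e-05). Cdkn2a and Cdkn2b, which encode inhibitors of the G1 kinases, were higher. Cdkn2a measured 6.22, 5.93 and 6.33 in NB_FACS, 8.79, 8.95 and 8.73 in NB_Control, 8.77, 8.9 and 8.75 in NB_Stim and 5.01 and 5.23 in A_FACS. Both cultures were above both sorted groups without overlap, by 2.66 (SE 0.144, adjusted p = 1.96e-06) in NB_Control against NB_FACS, and Cdkn2b by 2.18 (SE 0.24, adjusted p = 0.000118). In A_FACS against NB_FACS the list had 6 lower and 3 higher, among them Ccna2 (-4.47, SE 0.408, adjusted p = 9.87e-05), Btg2 (1.72, SE 0.182, adjusted p = 0.000208) and Rbl1 (-1.47, SE 0.186, adjusted p = 0.000561). Between the cultures only Cdk6, a G1 kinase, was called in this list (-1.24, SE 0.234, adjusted p = 0.0197). In other nucleotide supply, 5 were lower and 1 higher of 15 measured (18 listed) in NB_Control, with a median of -0.24. Shmt1, which feeds folate carbon into thymidylate, fell (-3.72, SE 0.208, adjusted p = 2.3e-06), and Samhd1, which breaks down deoxynucleotides, was the 1 that rose (1.45, SE 0.139, adjusted p = 5.01e-05). Samhd1 was lower again in NB_Stim than in NB_Control (-0.89, SE 0.139, adjusted p = 0.0079).

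Markers of other cell types differed between the groups as well, and their part in the differences above was not tested. Of 12 erythroid genes 9 were measured, and their summed level (log2) was 17.19 to 17.65 in NB_FACS, 13.11 to 14.64 in A_FACS and 8.98 to 9.27 in the cultures. Hba-a2, an alpha globin, measured 16.83, 16.91 and 17.11 in NB_FACS, 3.04, 4.73 and 5.26 in NB_Control, 4.81, 4.61 and 5.32 in NB_Stim and 12.87 and 14.46 in A_FACS, so that NB_FACS, the group with the highest replication genes, was also the highest in globin. Perfusion was described for the adult mice only, and its part in this was not tested. Of the 9 erythroid genes, 4 were called lower in NB_Control than in NB_FACS, the globin genes Hba-a2 (-12.61) and Hba-x (-8.79), with Hbb-bt at least 1740-fold and Alas2 of heme synthesis at least 260-fold lower, against the lowest signal well above background, and the other 5 were not called (-0.25 to 0.45). Neural progenitor and young neuron genes (8 of 8 measured) summed to 13.17 to 13.45 in NB_FACS, 12.53 to 13.04 in A_FACS and 12.32 to 12.77 in the cultures. Such a sum follows its brightest genes. Gene by gene, 5 of the 8 were called lower in A_FACS than in NB_FACS and 0 higher, with a median of -1.30. Sox2 (-3.97) and Hes5 (-3.77) differed most there. In NB_Control against NB_FACS 4 were called lower and 0 higher, with a median of -0.93. Endothelial genes (7 of 8) summed to 12.27 to 12.72 in NB_FACS, 12.70 to 13.71 in A_FACS and 9.97 to 11.26 in the cultures. Fibroblast genes (8 of 8) ran the other way, with 12.88 to 14.25 in the cultures, 9.81 to 10.15 in NB_FACS and 8.07 to 9.35 in A_FACS. Astrocyte genes (5 of 6) summed to 10.97 to 11.34 in the cultures and 9.49 to 10.14 in the sorted groups. The culture sums were mostly Aldoc, with means of 10.63 in NB_Control and 10.75 in NB_Stim. Against NB_FACS, 2 of the 5 genes were called higher in NB_Control and 3 in NB_Stim, and 0 lower in either. Slc1a3 went the other way, with means of 4.98 in NB_Control and 5.73 in NB_Stim against 6.3 in NB_FACS, and was not called. Aldh1l1 differed by -0.5 in NB_Stim against NB_FACS, also not called. Oligodendrocyte lineage genes (5 of 8) summed to 13.18 to 13.62 in NB_Stim, 10.39 to 10.94 in NB_Control and 8.91 to 9.74 in the sorted groups. The NB_Stim sum was mostly Cspg4, with a mean of 13.10. Between the cultures Cspg4 (3.57) was the only 1 of the 5 called, and the others ran from -0.03 (Mbp) to 1.36 (Olig2). Neutrophil genes (6 of 8) varied within NB_FACS, from 8.89 to 12.45, and lay between 8.91 and 11.05 elsewhere. Microglia genes (9 of 10) summed to 18.57 to 18.58 in NB_FACS, 18.94 to 18.99 in A_FACS, 17.60 to 18.03 in NB_Control and 18.43 to 18.52 in NB_Stim.

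Slide 2 held the arrays numbered 3 of NB_FACS, NB_Control and NB_Stim, and slide 1 held the other 8. Within slide 1 the median of the 46 genes was -1.40 between NB_Control and NB_FACS, and within slide 2, with 1 array each, -1.52. For NB_Stim against NB_Control the medians were -0.30 and -0.32, and for NB_Stim against NB_FACS -1.65 and -1.77. A_FACS had no array on slide 2. The share of probes well above background ran from 66.8% to 80.4% over the arrays, and 0 spots were saturated.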

How the data were processed

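Total RNA of 11 samples was labelled with Cy3 and hybridised to single-colour Agilent arrays. The authors deposited the spot intensity values of Feature Extraction 11.5.1.1 per array, and a series value table of 62927 entries, of which 0 differed from the deposited intensities (relative tolerance 1e-05). Here the processed intensity was quantile-normalised on the log2 scale after control spots and outlier spots were left out, 44727 probes above a background filter were kept, and probes were named through RefSeq accessions (GRCm38.p6, 60.4% of 60037 probes). Probes of a gene were averaged, which gave 19555 genes. Groups were fitted together with limma 3.58.1 in R 4.3.3 (residual df 7), with Benjamini-Hochberg adjustment in each of 6 comparisons. Probes not well above background give weak precision, and the number of arrays limits it further. The fit was tested on simulated data before use.

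The members, the pathway and marker lists and the tests were chosen with earlier results of these data known. Array values are given for the 2 called members per role with the largest NB_Control against NB_FACS difference, for every member called with cytokines, for called members against the majority sign, and for Mcm2, Pcna, Rrm2 and Ccne2, and the 3 called genes of largest difference were named per pathway list, apart from a result that is not reported here. Other genes named were chosen after their values were seen. Replicate numbers, shared by the labels of the newborn groups, were not a block in the reported tests, as they are not said to mark a shared animal or day. Pairing by number entered only the paired medians and the replicate block given above. Deviations from group means correlated at 0.112 to 0.489 for all 9 same-number pairs. Replicates 1 and 2, both on slide 1, correlated across numbers about as much (0.185 to 0.364), and replicate 3, on slide 2, correlated with other numbers at -0.448 to -0.184, so number and slide cannot be told apart. The 24 alternatives covered scaling, background correction, filters, probe choice, the value table, the samples fitted, the methods' Tukey test, slide or replicate blocks, averaging of replicates 1 and 2 and leaving out each array.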

Additional observations from a re-analysis of the deposited data

How the results depend on the processing

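Of the genes called in each comparison, 34 of 40 (NB_Control against NB_FACS), 36 of 43 (NB_Stim against NB_FACS) and 37 of 42 (A_FACS against NB_FACS) kept their call under all 24 alternatives, and 1 of 3 did in NB_Stim against NB_Control. Over the alternatives the median of the 46 genes ran from -1.66 to -1.11, -1.83 to -1.33, -2.44 to -1.59 and -0.43 to -0.21 in these 4 comparisons. With 1 array left out, the genes called lower numbered 38 to 41, 42 to 43, 40 to 43 and 0 to 3. The last count, 2 as reported, was 4 with normexp background correction, 4 with the brightest probe of a gene and 1 with only the 2 groups compared. It was 0 and 5 by the Tukey test with and without adjustment over genes, 8 with slide as a block and 0 with cultured replicates 1 and 2 averaged. In the same order, genes called in either direction among all 19555 numbered 1009, 729, 456, 183, 1590, 1476 and 118, against 666 as reported. The count of the 46 genes called lower in NB_Stim than in NB_Control was 0 without any 1 of the NB_Control arrays or without NB_Stim replicate 1 or 2. It was 1 without NB_FACS replicate 2. Against NB_Control, A_FACS had 20 genes called lower, and 12 by the Tukey test with adjustment over genes. Leaving out 1 array gave 12 to 21, with 12 without A_FACS replicate 1. With the replicate number as a block (the pairing), 9 genes were called higher in A_FACS than in NB_Stim (8 with slide as a block, 4 as reported), and the genes called lower were 41, 44, 42, 7, 20 and 16 for NB_Control, NB_Stim and A_FACS against NB_FACS, NB_Stim against NB_Control, and A_FACS against NB_Control and NB_Stim. Neither Mcm7 nor Lig1 was called between NB_Stim and NB_Control. The difference of Mcm7 ran from -0.93 to 0.15 with 1 array left out, the latter without NB_Control replicate 3, and that of Lig1 was 0.05 with no filter on dim probes, where both were below 0 as reported. The causes were not tested. The signal of Mcm7, Ccne2 and Exo1 near background limits what can be read from them.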
